A study of Mus musculus with 21 samples.

Results

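The genes described here are 40 genes of fatty acid oxidation and ketone body synthesis in mouse liver, chosen by name for the steps they encode. The choice used no measured value as a criterion, but it was made with earlier results of these data known. The annotation used here named a probe for 39 of them, and 38 were tested among 11442 genes in all. Acsl1 was not analysed here, and Vnn1 was left out because its probe was detected on 1 of 21 arrays. Livers came from chow-fed female CD-1 mice aged 3 months, with 1 Illumina array per mouse, in groups of 3: mice at 1, 3 or 6 h after partial hepatectomy (PH), mice at 1, 3 or 6 h after 1 gavage of TCPOBOP (TCP) at 3 mg/kg, and control mice. PH is the surgical removal of most of the liver mass, and TCP is an agonist of the nuclear receptor CAR that makes the liver grow without loss of tissue. No sham-operated mice, no mice given the vehicle alone and no controls taken at 1, 3 or 6 h were among the arrays, so that surgery, anaesthesia, handling and time of day cannot be told apart from the treatments.

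Long fatty acids are first bound to coenzyme A by acyl-CoA synthetases and are then passed into mitochondria by the carnitine shuttle, where repeated cycles of beta-oxidation cut them to acetyl-CoA. Peroxisomes carry out a parallel set of reactions on very long and branched chains, and the liver turns spare acetyl-CoA into ketone bodies that other organs burn during a fast. The nuclear receptor PPARA, which is itself switched on by fatty acids, is known to raise the transcription of many of these genes in the hepatocyte.

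Signals are given as background-corrected, quantile-normalised log2 values, and changes as log2 differences between group means with a standard error (SE) from 1 limma model of all 21 arrays. The call threshold was a Benjamini-Hochberg adjusted p under 0.05 over all 11442 genes and a fold change of 1.5 or more, and the words rose and fell are kept for genes that passed it. The brightest probe stood for each gene, and signals of different probes were not compared with each other. The arrays lay on 4 beadchips, 15982 to 17973 probes were detected per array, and each beadchip held only some of the groups. No beadchip held PH and TCP arrays of the same time. For this reason a second value, marked block, comes from the model with beadchip as a block, and where a beadchip held a control, the change against that single control is given too. Albumin and the other 7 hepatocyte markers examined were detected on all 21 arrays, and none of the 8 was called against control at any time.

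One hour after PH, most genes of the set were measured at lower levels than in control livers, but none reached the threshold singly. Of the 38 genes, 34 had a mean below that of the controls, against 50.3% of all genes tested, and the median change was -0.40 against 0 over all genes. On 21 of the 38 genes (55.3%) all 3 PH 1 h arrays lay below all 3 control arrays, against 10.8% of all genes, and on 0 of the 38 did they lie above, against 11.2%. The limma model called 0 of the 38 genes and 0.402% of all genes at this time, while 15 of the 38 (39.5%) had an unadjusted p under 0.05, as had 10.7% of all genes. With the median taken over the 38 genes, the 3 PH 1 h arrays had differences from the control mean of -0.47, -0.28 and -0.39, against -0.05, 0.03 and 0.04 on the 3 control arrays. The control values lie near 0 by construction, since they are set against their own mean, and the 3 PH 3 h arrays (-0.17, -0.15 and -0.33) were also below them.

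**Figure D1:**
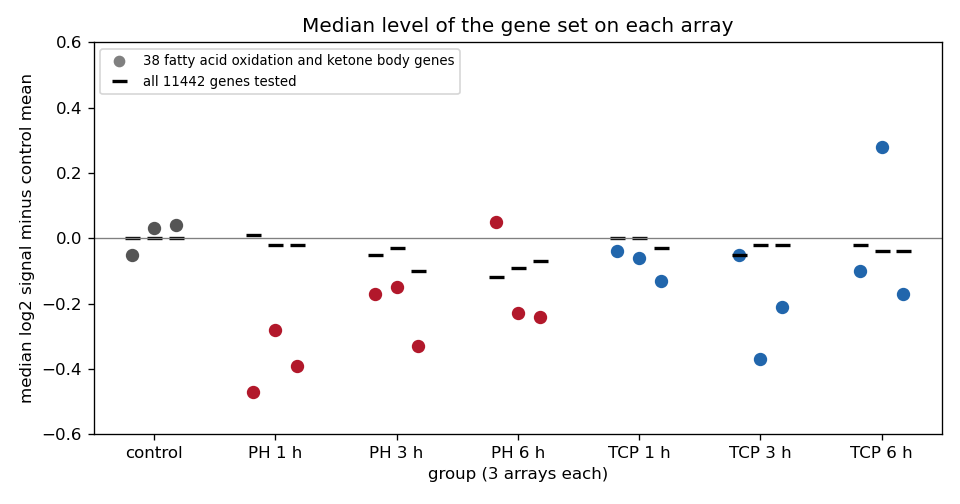
Median over the 38 genes of the log2 signal minus the mean of the control arrays (y axis), on each of the 21 arrays by group (x axis; grey control, red PH, blue TCP), with the median over all 11442 genes as a black bar. The 3 PH 1 h arrays lie at -0.47 to -0.28, and the 3 control arrays at -0.05 to 0.04.

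All 3 PH 1 h arrays lay on the same beadchip as control replicate 2. Against that control alone 34 of the 38 changes were below 0 with a median of -0.41, and with the beadchip as a block 34 were below 0 with a median of -0.47. Leaving out 1 array at a time gave 33 to 35 genes below 0 and medians of -0.46 to -0.33, and on the authors' normalised values 34 were below 0 with a median of -0.26. The 8 hepatocyte markers had a median change of 0.02 at this time. Neutrophil markers had a summed linear signal of 320 to 2140 on PH 1 h arrays and 142 to 182 on control arrays, with 2 of 5 tested called higher, and Cxcr2 and Mmp8 detected on no PH 1 h array. The part of this shift in the result was not tested. In whole liver, fewer cells of a type and less RNA per cell cannot be told apart.

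The lower levels at 1 h were spread over the steps of the pathway. All 7 peroxisomal genes had a change below 0 (median -0.42), as had 9 of the 10 mitochondrial beta-oxidation genes (median -0.33), 5 of the 6 thioesterases (median -0.52), the 3 electron transfer flavoprotein genes (median -0.19), 5 of the 6 genes of activation and shuttling (median -0.16) and both ketone body genes (median -0.46). Fgf21 (0.91), Acot2 (0.32), Acsl4 (0.14) and Acads (0.02) were the 4 genes with a change above 0, none of them called. The 21 genes whose arrays did not overlap were Ppara, Pex11a, Cpt2, Crat, Acadm, Hadha, Hadhb, Eci1, Decr1, Etfa, Etfb, Acaa1a, Acaa1b, Hsd17b4, Decr2, Ech1, Eci2, Acot1, Acot3, Acot8 and Bdh1. Their changes ran over a wide range, with Etfb at -0.13 and Acot3 at -1.79 as its ends.

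**Figure D2:**
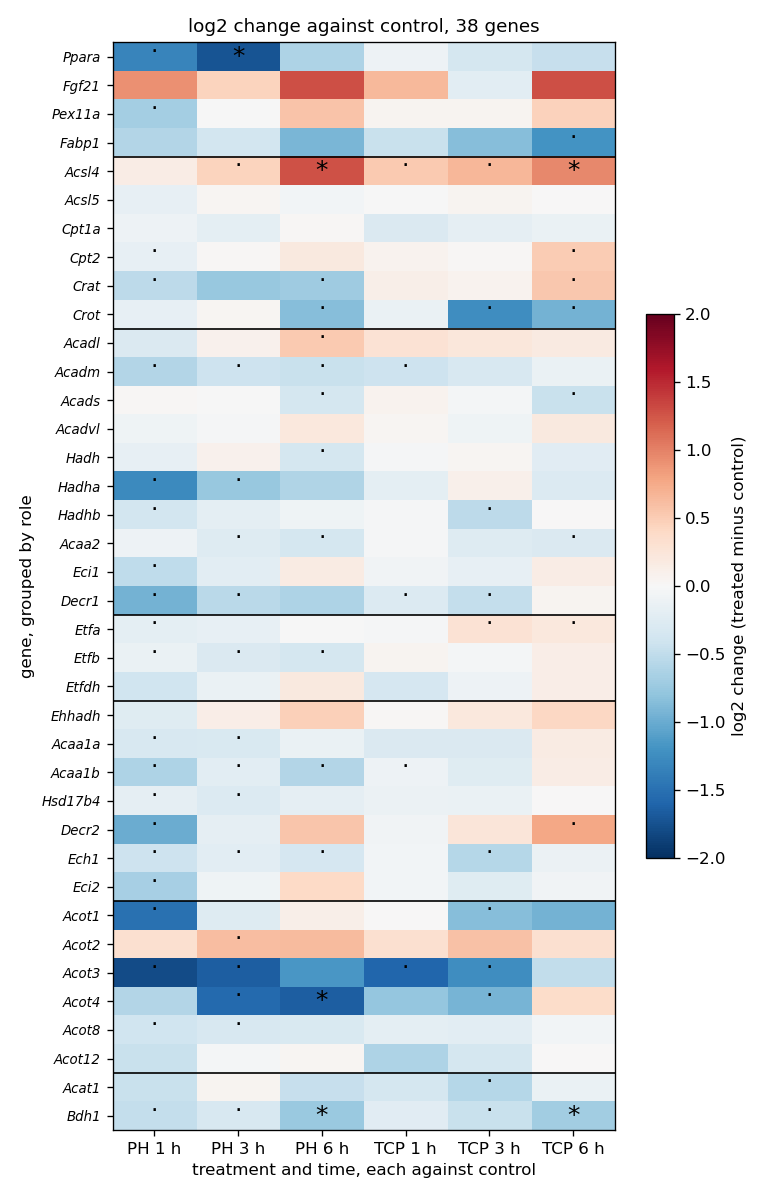
Log2 change against control (colour, red higher and blue lower than control) of the 38 genes (rows, grouped by role) in the 6 treatment groups (columns), with * for a called change and a dot where the groups did not overlap but the gene was not called. The PH 1 h column is blue in 34 of 38 rows, and 6 cells carry a *.

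Decr1, the mitochondrial 2,4-dienoyl-CoA reductase that handles unsaturated fatty acids, had the smallest adjusted p of the set at 1 h. Its log2 signal was 8.51, 8.48 and 8.65 on the PH 1 h arrays, against 9.56, 9.42 and 9.52 on the control arrays. The groups lay apart. The change of -0.95 (SE 0.24, block -0.97) missed the threshold, with a limma adjusted p of 0.0895. PH 3 h arrays gave 9.02, 9.14 and 8.72 for Decr1, and PH 6 h arrays 9.43, 8.44 and 8.76. The PH 6 h array of replicate 1 lay within the control range, and the other 2 did not. TCP 1 h arrays gave 9.33, 9.20 and 9.16, TCP 3 h arrays 9.37, 8.67 and 9.03, and TCP 6 h arrays 9.78, 9.79 and 9.08. Of the TCP groups only that of 6 h overlapped the controls. A moderated F test over the 3 PH times called Decr1 (adjusted p = 0.035), while the same test called 0 of the 38 genes once beadchip was a block.

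Hadha and Hadhb encode the alpha and beta subunits of the mitochondrial trifunctional protein, which carries out the last steps of the cycle on long chains. Hadha was measured at 6.60, 5.86 and 5.17 on the PH 1 h arrays and at 7.12, 7.46 and 6.89 on the control arrays. All PH 1 h arrays were lower, with a change of -1.28 (SE 0.35, adjusted p = 0.116), which was -1.64 and called (adjusted p = 0.0316) only without PH 1 h replicate 1. Hadhb was measured at 11.22, 11.46 and 11.40 at PH 1 h and at 11.48, 11.86 and 11.84 in controls, a change of -0.37 (SE 0.17, adjusted p = 0.455). Both genes thus lay lower without overlap at 1 h. The sizes of the changes come from different probes, and the difference between them was not tested. They are transcribed away from each other from neighbouring start sites. In RefSeq (GRCm38.p6) the Hadhb window of 250 bases before to 50 after its start, chr5:30155003-30155302 on the plus strand, shares 228 of its 300 bases with the Hadha window on the minus strand, chr5:30154931-30155230. The sequence is shown because these members share their promoter region, and capitals mark the shared bases.
Hadhb: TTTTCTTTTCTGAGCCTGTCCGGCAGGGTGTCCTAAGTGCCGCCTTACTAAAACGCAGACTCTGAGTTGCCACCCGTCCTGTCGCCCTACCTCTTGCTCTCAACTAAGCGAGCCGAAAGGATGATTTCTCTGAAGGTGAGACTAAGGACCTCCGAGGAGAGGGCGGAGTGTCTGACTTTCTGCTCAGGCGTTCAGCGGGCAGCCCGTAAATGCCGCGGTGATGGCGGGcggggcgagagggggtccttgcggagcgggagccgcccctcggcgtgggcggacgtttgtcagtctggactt

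The regulator itself, Ppara, had a mean below that of the controls at all 3 PH times. At PH 6 h it overlapped the controls, and the change of -0.62 was not called. PH 1 h arrays gave 6.22, 7.06 and 6.36, PH 3 h arrays 5.12, 7.67 and 5.62, and PH 6 h arrays 6.90, 7.38 and 7.47, against 8.02, 7.39 and 8.18 in controls. PH 1 h arrays did not overlap the controls (change -1.32, SE 0.43, adjusted p = 0.225). At PH 3 h, replicates 1 and 3 were the lowest of the 21 arrays and replicate 2 lay within the control range. Ppara fell by 1.73 on the log2 scale at 3 h (SE 0.43, limma adjusted p = 0.0179). It was the one gene of the 38 called at that time, against 7.43% of all genes, or 3.5% lower. The change was -2.49 without PH 3 h replicate 2 (adjusted p = 2.24e-05). The call was lost with the block (-1.63, adjusted p = 0.0828) and without control replicate 1, control replicate 3, PH 3 h replicate 1 or PH 3 h replicate 3, and the change ran from -2.49 to -1.22 over these fits. The change was smaller without background correction (-0.84, adjusted p = 0.0248), and on the authors' normalised values (-0.46, adjusted p = 0.034) it was under 1.5-fold and not called. Within the beadchips it was -1.0 on 1 and -2.56 on the other. TCP 1 h arrays gave 7.85, 7.86 and 7.60, TCP 3 h arrays 7.80, 7.19 and 7.53, and TCP 6 h arrays 7.40, 7.53 and 7.28, with no change of Ppara called.

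Pex11a encodes a peroxisomal membrane protein that takes part in peroxisome division and is a known target of PPARA. PH 1 h arrays gave 11.05, 10.93 and 10.61, PH 3 h arrays 11.76, 11.21 and 11.66, and PH 6 h arrays 12.26, 11.62 and 12.49, against 11.36, 11.63 and 11.67 in controls. It lay below the controls without overlap at 1 h and reached above them on 2 of 3 arrays at 6 h. Neither change of the brightest probe against control was called (-0.69 at 1 h, adjusted p = 0.273, and 0.57 at 6 h, adjusted p = 0.102). With every probe fitted, another Pex11a probe read 0.78 at PH 6 h and passed the threshold (limma adjusted p = 0.0433). The other kept probes of Pex11a read 0.40 and 0.46 and did not. The difference between PH 6 h and PH 1 h was called and is given further on. Fgf21, the fasting hormone that hepatocytes release under PPARA, varied more among controls (5.74, 5.54 and 8.0) than most genes of the set. It was at 7.26, 7.97 and 7.95 at PH 6 h (change 1.30, adjusted p = 0.151), and without control replicate 3 this change was 2.08 and called (adjusted p = 0.0217). At TCP 6 h it was at 6.21, 8.21 and 8.72 (change 1.29, adjusted p = 0.26), overlapping the controls.

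Fabp1, the liver fatty acid binding protein, had a dim probe here, with log2 signals of 5.16 to 7.67 over all arrays, although it is among the abundant proteins of the hepatocyte. It was at 5.46, 5.98 and 5.42 at TCP 6 h and at 6.10, 7.67 and 6.67 in controls, apart but not called (change -1.19, SE 0.37, adjusted p = 0.0633). Without control replicate 1 the change was -1.55 at TCP 6 h and -1.26 at PH 6 h, both called (adjusted p = 0.0426 and 0.0311). A search of RefSeq promoter windows of 300 bases (GRCm38.p6) on both strands for NGGNCA, then any 1 base, then AGGNCA, a spaced repeat of the kind PPARA binds with RXR, found it in 2 of 37 windows of the 34 members with one, and in 0.798% of all 32851 windows. The 2 were those of Fabp1 and Acot4. The shorter AGGTCA, which can lie inside the longer motif, was in 8 of the 37 windows and in 16.3% of all windows. The motif was chosen after the values had been seen, and a match is no evidence of binding. Both windows are shown because they are the members that hold it, Fabp1 at chr6:71199629-71199928 and Acot4 at chr12:84038129-84038428, both on the plus strand. Capitals mark the match, which lies on the minus strand and begins at base -67 of Fabp1 and base -13 of Acot4, counted from the start site.
Fabp1: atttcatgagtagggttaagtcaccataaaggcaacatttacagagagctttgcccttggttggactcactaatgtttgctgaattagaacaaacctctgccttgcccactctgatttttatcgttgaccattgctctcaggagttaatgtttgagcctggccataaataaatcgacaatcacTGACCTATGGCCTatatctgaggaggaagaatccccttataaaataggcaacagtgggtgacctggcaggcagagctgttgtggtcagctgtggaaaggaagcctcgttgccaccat
Acot4: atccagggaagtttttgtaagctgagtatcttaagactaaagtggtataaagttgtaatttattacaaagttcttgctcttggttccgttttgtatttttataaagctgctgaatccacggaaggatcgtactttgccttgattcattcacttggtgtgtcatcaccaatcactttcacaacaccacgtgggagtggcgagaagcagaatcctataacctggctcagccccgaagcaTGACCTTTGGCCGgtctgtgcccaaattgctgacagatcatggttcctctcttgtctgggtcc

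Acsl4, an acyl-CoA synthetase that prefers long polyunsaturated fatty acids such as arachidonate, was the one member that rose against control after both treatments. It was at 8.60, 7.95 and 7.64 at PH 6 h, against 6.61, 6.82 and 6.93 in controls. All 3 PH 6 h arrays were higher, and Acsl4 rose by 1.27 (SE 0.25, limma adjusted p = 0.00137). This call was kept with the block (1.01, adjusted p = 0.0345) and in all 6 fits that left out 1 array, and within the beadchip the change was 1.13. Without background correction it was 0.78 (adjusted p = 0.00174), and on the authors' normalised values it was 0.48 (adjusted p = 0.00306), under 1.5-fold and so not called. At PH 6 h 3 of the 38 genes were called, 1 higher and 2 lower, against 20.8% of all genes (8.85% higher and 11.9% lower). At TCP 6 h Acsl4 was at 7.56, 7.80 and 7.91, again apart from the same 3 control arrays. It rose by 0.97 (SE 0.25, limma adjusted p = 0.0302), and 2 of the 38 genes were called at that time against 5.31% of all genes. The TCP call was lost with the block (1.12, adjusted p = 0.123) and in 5 of the 6 fits that left out 1 array, all but the one without TCP 6 h replicate 1. It was also lost without background correction (0.56) and on the authors' normalised values (0.33). Between PH 6 h and TCP 6 h the difference was 0.31 (adjusted p = 0.487). Other probes of the gene read 0.56 and 0.63 at PH 6 h and -0.03 and 0.32 at TCP 6 h, so that they moved less than the brightest one. Acsl4 is also made by cells other than hepatocytes. At PH 6 h the summed signal of neutrophil markers was 563 to 938, against 142 to 182 in controls, with 3 of 5 tested called higher. Of the endothelial markers 3 of 6 were called higher, but their summed signal overlapped the controls (2890 to 6550, against 4760 to 5550). At TCP 6 h no neutrophil or endothelial marker was called, with a neutrophil sum of 218 to 262. Their part in the Acsl4 values was not tested.

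Cpt1a, the rate-limiting carnitine palmitoyltransferase of the outer mitochondrial membrane, was close to the detection limit. Its brightest probe was detected on 15 of 21 arrays, its changes against control lay between -0.29 and 0.02, and none was called. Cpt2, its partner at the inner membrane, was at 13.01, 13.29 and 13.03 at TCP 6 h and at 12.53, 12.58 and 12.70 in controls, apart with a change of 0.51 (SE 0.17, adjusted p = 0.0914). Crat, the carnitine acetyltransferase that buffers acetyl-CoA, was at 7.73, 6.78 and 7.79 at PH 6 h and at 8.65, 9.06 and 8.32 at TCP 6 h. The PH 6 h arrays lay below all 3 controls (8.29, 7.86 and 8.30) and the TCP 6 h arrays above them. The changes against control of -0.71 and 0.53 were not called, while the difference of PH 6 h from TCP 6 h was (-1.25, SE 0.29, adjusted p = 0.00932). Crot, the peroxisomal carnitine octanoyltransferase, was at 5.81, 5.13 and 6.33 at TCP 3 h, below the controls at 6.78, 7.31 and 6.91, with a change of -1.25 (SE 0.39, adjusted p = 0.142). Acsl5 changed by -0.16 to 0.05 in all 6 comparisons with control.

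**Figure D3:**
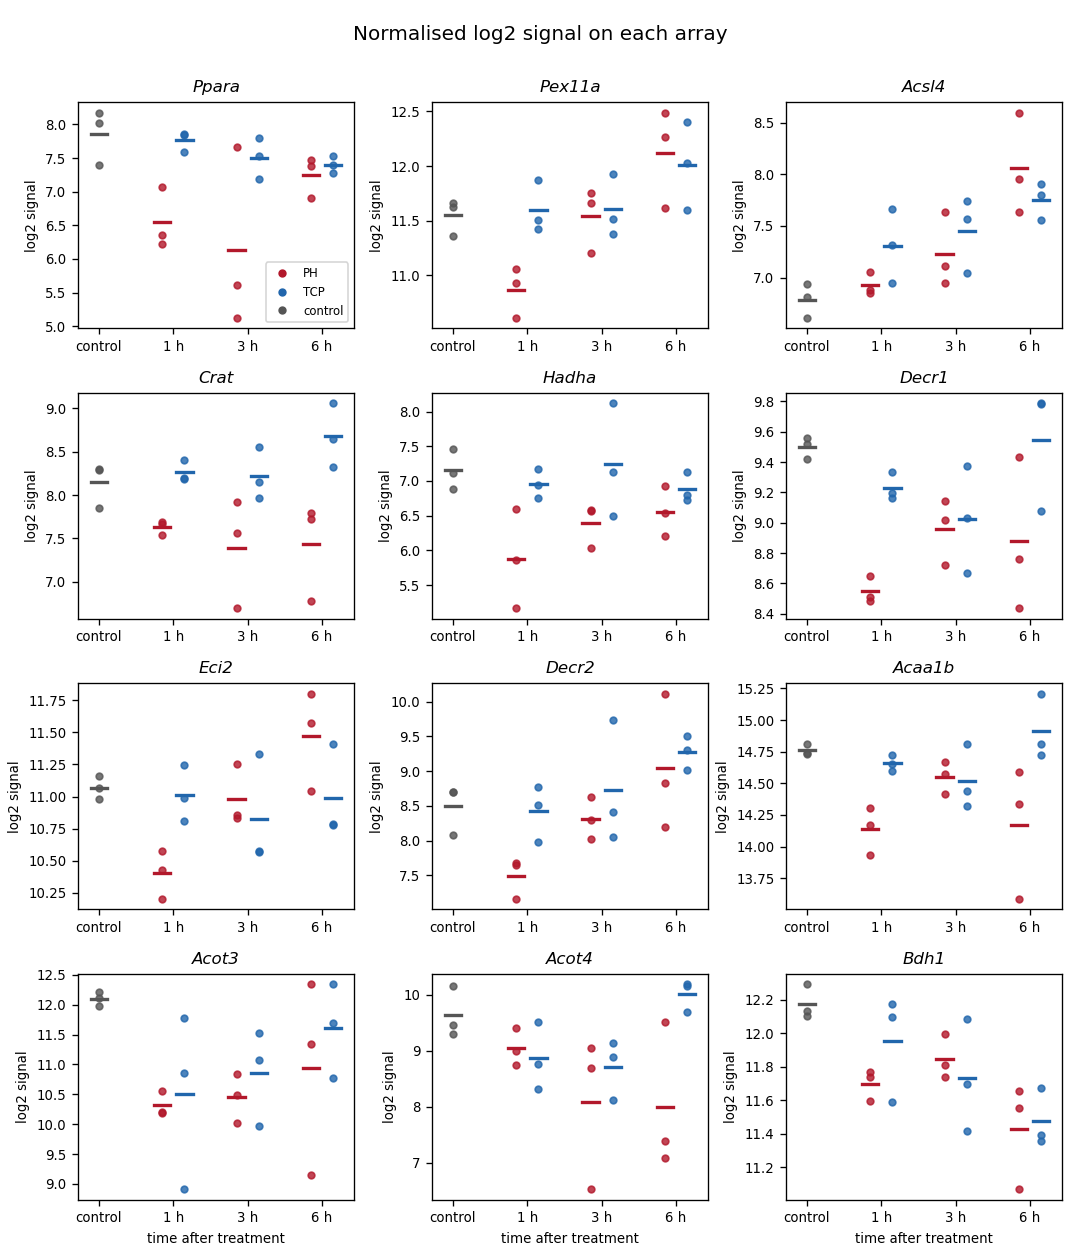
Normalised log2 signal (y axes) of 12 genes by time after treatment (x axes), with a point for each array, a line for the mean of 3 arrays, red for PH, blue for TCP and grey for control. PH 1 h points of Decr1, Eci2 and Acaa1b lie below all control points, and Acsl4 lies above them at 6 h after both treatments.

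Among the dehydrogenases of the mitochondrial cycle, Acadm, the medium-chain acyl-CoA dehydrogenase, was at 12.99, 13.25 and 13.25 at PH 1 h and at 13.86, 13.67 and 13.73 in controls. Its arrays lay below the controls at all 3 PH times, with changes of -0.59, -0.41 and -0.45 at 1, 3 and 6 h (adjusted p = 0.234, 0.229 and 0.104), and at TCP 1 h (-0.41, adjusted p = 0.608). None was called. Acadl, the long-chain enzyme, was lower than the mean control at PH 1 h (-0.29) and higher at PH 6 h (0.52, adjusted p = 0.115). Acadvl, which acts on very long chains, changed by -0.09 to 0.21, and Acads, the short-chain enzyme, lay below the controls without overlap at PH 6 h (-0.36) and TCP 6 h (-0.44), with neither called. Etfa and Etfb, the subunits of the flavoprotein that takes electrons from these enzymes, were bright and varied little. Etfb was at 13.56, 13.64 and 13.76 at PH 6 h and at 14.22, 14.04 and 14.13 at TCP 6 h, and the difference of -0.48 had an adjusted p of 0.0248 but was under 1.5-fold. Thus Etfb was not called.

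The acyl-CoA thioesterases, which split acyl-CoA back to free acid, held the widest changes. Acot2, Acot1, Acot4 and Acot3 lie next to each other in this order on chromosome 12 among protein-coding genes in RefSeq. They are close relatives, and whether their probes read only 1 of them was not tested. For Acot3, PH 1 h arrays gave 10.20, 10.55 and 10.19, PH 3 h arrays 10.02, 10.49 and 10.84, and PH 6 h arrays 12.34, 11.34 and 9.14, against 12.22, 12.11 and 11.98 in controls. It lay below the controls at 1 and 3 h (changes -1.79 and -1.66, SE 0.68, adjusted p = 0.305 and 0.154) and overlapped them at 6 h. After TCP it was at 11.77, 8.91 and 10.86 at 1 h (change -1.59, adjusted p = 0.523), so a gap to the controls was also seen there. Acot1 was at 9.75, 11.52 and 10.03 at PH 1 h and at 12.03, 12.01 and 11.74 in controls, a change of -1.50 (SE 0.66, adjusted p = 0.412), and its other probe read -1.94. At PH 6 h the array of replicate 1 read 13.65 and the others 11.31 and 11.16.

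Acot4 was at 7.09, 9.51 and 7.39 at PH 6 h, against 9.30, 9.46 and 10.16 in controls. Replicates 1 and 3 were far below the controls and replicate 2 lay among them. Acot4 fell by 1.65 (SE 0.58, limma adjusted p = 0.0489). Of the 6 fits that left out 1 array, the call was kept in the one without PH 6 h replicate 2 (-2.40, adjusted p = 0.00344) and lost in the other 5. It was kept with 75th percentile scaling (adjusted p = 0.0368) and a replicate block (adjusted p = 0.0494), and lost with the beadchip block (-2.16, adjusted p = 0.0657), without background correction (-1.24, adjusted p = 0.0502), on the authors' values (-0.92, adjusted p = 0.0596), without the filter on dim probes (adjusted p = 0.0858), with every probe fitted (adjusted p = 0.0518) and with a variance trend and robust prior (adjusted p = 0.078). At PH 3 h it was at 6.52, 8.69 and 9.06, below all controls (-1.55, adjusted p = 0.12). At TCP 6 h it was at 9.69, 10.15 and 10.19, overlapping the controls. Acot8, a peroxisomal thioesterase, was at 10.15, 10.15 and 10.14 at PH 1 h and at 10.42, 10.60 and 10.65 in controls, a small gap with a change of -0.40 (SE 0.16, adjusted p = 0.312). Acot2 was near the detection limit, detected on 20 of 21 arrays, and its 3 probes disagreed at PH 6 h (0.63 for the brightest, 2.39 and 0.21 for the others).

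Ketone body synthesis was represented by Acat1, the mitochondrial thiolase that forms acetoacetyl-CoA, and Bdh1, the dehydrogenase that turns acetoacetate into beta-hydroxybutyrate. Bdh1 was at 11.66, 11.56 and 11.07 at PH 6 h and at 11.67, 11.36 and 11.40 at TCP 6 h, against 12.29, 12.10 and 12.13 in controls. Both treated groups lay below the 3 shared control arrays. Bdh1 fell by 0.75 after PH (SE 0.20, limma adjusted p = 0.0109) and by 0.70 after TCP (SE 0.20, adjusted p = 0.0467), and PH 6 h and TCP 6 h differed by -0.05 (adjusted p = 0.913). The PH call was lost without PH 6 h replicate 3 (-0.57) and with the block (-0.52, adjusted p = 0.151), and the TCP call was lost in all 6 fits that left out 1 array (-0.80 to -0.64), with the block (-1.0, adjusted p = 0.0939), without the filter on dim probes (adjusted p = 0.0515) and with every probe fitted (adjusted p = 0.0569). Within a beadchip the changes were -0.70 and -0.82. The other, dimmer Bdh1 probe read -0.13 at PH 6 h and -0.12 at TCP 6 h. Acat1 was at 7.24, 6.30 and 7.77 at PH 6 h and at 7.44, 7.29 and 7.96 in controls, with no change called at any time.

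At 1 and 3 h after TCP, limma called 0 of the 38 genes, against 0.184% and 1.22% of all genes. At an unadjusted p under 0.05 there were 2 members against 8.04% of all genes at 1 h, and 7 members against 13.7% at 3 h. The medians over the 38 genes were -0.06, -0.19 and 0.01 at 1, 3 and 6 h, and 5, 11 and 10 members had arrays apart from the controls in either direction, against 19.5%, 22.2% and 34% of all genes. After PH the medians at 3 and 6 h were -0.19 and -0.16, and 15 and 12 members lay apart, against 28.9% and 37.9% of all genes. The count of 15 at PH 3 h (39.5%) was made up of 13 lower and 2 higher members, against 17.2% and 11.7% of all genes. That of 11 at TCP 3 h (28.9%) was made up of 9 lower and 2 higher members, against 12.7% and 9.48%. At PH 3 h 3 of 5 neutrophil markers were called higher, with a summed signal of 1190 to 2510, against 142 to 182 in controls, and their part was not tested. At TCP 6 h 16 of the 38 changes were below 0, which was 28 under scaling to the 75th percentile in place of quantile normalisation, so no direction is given for the set at that time. TCP 6 h replicate 2 lay apart from its group, with 8 of the 38 genes below the control mean, against 22 and 24 on the other 2 arrays. A moderated F test over the 3 times called 6 of the 38 genes after PH (Ppara, Pex11a, Acsl4, Decr1, Eci2 and Bdh1), against 21.2% of all genes, and 0 after TCP, against 5.21%. PH 1 h and PH 6 h arrays lay on different beadchips, and with the beadchip as a block the PH test called 0 of the 38.

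**Figure D4:**
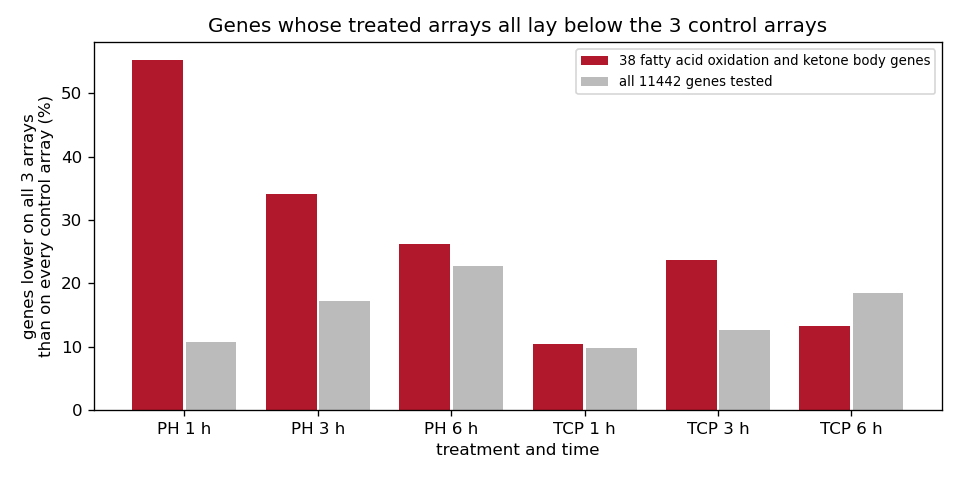
Share of genes in percent (y axis) whose 3 treated arrays all lay below all 3 control arrays, for the 38 genes of the set (red) and all 11442 genes (grey), by treatment and time (x axis). The share of the set is 55.3% at PH 1 h, against 10.8% of all genes, and bars of the 6 groups share the same control arrays.

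The direct comparison of PH with TCP at the same time uses no control array. At 1 h, 34 of the 38 genes were lower after PH than after TCP, against 50.7% of all genes, with a median difference of -0.19. On 15 of the 38 genes (39.5%) the PH arrays lay all below the TCP arrays, against 7.51% of all genes, and on 0 of them above, against 8.34%. The limma model called 0 of the 38 and 0.271% of all genes, with 11 members at an unadjusted p under 0.05, against 9.26% of all genes. Among them Ppara was at 6.22, 7.06 and 6.36 after PH and 7.85, 7.86 and 7.60 after TCP (difference -1.22, adjusted p = 0.305). Pex11a was at 11.05, 10.93 and 10.61 after PH and 11.87, 11.50 and 11.42 after TCP (-0.73, adjusted p = 0.272). All 10 mitochondrial beta-oxidation genes had a difference below 0. Kupffer cell and macrophage markers had a summed signal of 1770 to 5000 at PH 1 h and of 832 to 1170 at TCP 1 h, with a median difference of 1.56 and 1 of 7 called higher, and their part in the result was not tested. No beadchip held both groups, so no value within a beadchip can be given. With the block, which links the beadchips through control arrays and other groups, 32 of the 38 differences were below 0 (median -0.36).

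At 3 h 0 of the 38 genes were called between PH and TCP, against 4.36% of all genes, with 5 members at an unadjusted p under 0.05, against 18.5%. Without PH 3 h replicate 2, Ppara was called (-2.14, adjusted p = 0.000162). At 6 h 3 genes were called, all lower after PH, against 10.3% of all genes, or 5.53% lower. They were Crat, whose values stand above, Acaa1b and Acot4. Acaa1b, one of a pair of nearly identical peroxisomal thiolases, was at 14.59, 14.34 and 13.59 at PH 6 h and at 14.81, 15.21 and 14.72 at TCP 6 h, apart with a difference of -0.74 (SE 0.21, adjusted p = 0.031). Its near copy Acaa1a differed by -0.31 (adjusted p = 0.336), and whether 1 probe reads both genes was not tested. Acot4 differed by -2.02 (SE 0.58, adjusted p = 0.0317). All 3 calls were lost with the block, where the differences were -1.08, -0.57 and -2.55 (adjusted p = 0.506, 0.685 and 0.409). Over the fits that left out 1 array, Crat ran from -1.42 to -0.92 and lost its call only without TCP 6 h replicate 2, and on the authors' values it was -0.58, under 1.5-fold. Acaa1b ran from -0.95 to -0.45 and lost it without PH 6 h replicate 3, TCP 6 h replicate 1 or TCP 6 h replicate 2, and with 75th percentile scaling (-0.41, adjusted p = 0.315). Acot4 ran from -2.77 to -1.56 and lost it in all but the fit without PH 6 h replicate 2, and also without the filter on dim probes (adjusted p = 0.0566) and with a variance trend and robust prior (adjusted p = 0.0557).

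Between 1 and 6 h after PH the set moved upward on balance. Of the 38 genes 27 had a higher mean at PH 6 h than at PH 1 h and 11 a lower one, while 56.5% of all genes had a lower one, and the median difference was 0.24 against -0.08 over all genes. Limma called 6 members, all higher, against 18.1% of all genes in both directions and 7.52% higher. In 9 of the 38 genes all PH 6 h arrays lay above all PH 1 h arrays, against 13.2% of all genes. No beadchip held both times. With the block all 6 differences kept their sign and none its call.

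Pex11a was at 12.26, 11.62 and 12.49 at PH 6 h and at 11.05, 10.93 and 10.61 at PH 1 h, and rose by 1.26 (SE 0.25, adjusted p = 0.00205; block 1.16). Eci2, a peroxisomal enoyl-CoA isomerase, was at 11.80, 11.05 and 11.58 at PH 6 h and at 10.20, 10.43 and 10.57 at PH 1 h, and rose by 1.07 (SE 0.24, adjusted p = 0.00458; block 0.89). Acsl4 rose by 1.13 (SE 0.25, adjusted p = 0.00437; block 0.75), with 8.60, 7.95 and 7.64 against 6.85, 7.06 and 6.88. These 3 calls were kept in all 6 fits that left out 1 array, and in each the 2 times did not overlap. On the authors' normalised values Acsl4 (0.44) and Acadl (0.49) were under 1.5-fold and not called. Decr2, the peroxisomal dienoyl-CoA reductase, was at 10.12, 8.83 and 8.20 at PH 6 h and at 7.16, 7.64 and 7.68 at PH 1 h. It rose by 1.55 (SE 0.42, adjusted p = 0.0135; block 1.14), a call lost without PH 1 h replicate 1 or PH 6 h replicate 1. Eci1, the mitochondrial isomerase, was at 12.29, 11.92 and 11.98 at PH 6 h and at 11.43, 11.26 and 11.45 at PH 1 h. It rose by 0.68 (SE 0.18, adjusted p = 0.0134; block 0.96), a call lost without PH 1 h replicate 2 or PH 6 h replicate 1. Acadl was at 9.70, 8.80 and 8.74 at PH 6 h and at 8.41, 8.17 and 8.24 at PH 1 h, and rose by 0.81 (SE 0.23, adjusted p = 0.02; block 0.84). That call was lost without PH 1 h replicate 2, PH 1 h replicate 3 or PH 6 h replicate 1. PH 6 h replicate 1 had the highest Acsl4, Decr2, Eci2, Eci1 and Acadl of its group.

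**Figure D5:**
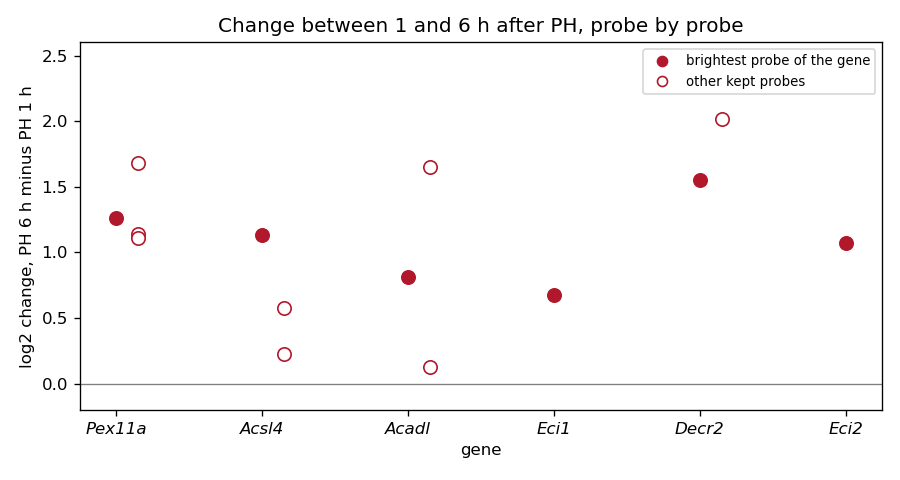
Log2 difference of PH 6 h minus PH 1 h (y axis) for each kept probe of the 6 called genes (x axis), filled for the brightest probe and open for the others. The 4 Pex11a probes lie between 1.11 and 1.68, both Decr2 probes at 1.55 and 2.02, and the 3 Acadl probes between 0.13 and 1.65.

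Probes of the same gene are separate measurements of the same RNA. The 4 Pex11a probes gave 1.26, 1.68, 1.14 and 1.11, each with an adjusted p under 0.05 when every probe was fitted, and the 2 Decr2 probes gave 1.55 and 2.02. For Acadl they gave 0.81, 1.65 and 0.13, and for Acsl4 1.13, 0.58 and 0.23, so that the brightest probe did not stand for all. Between 1 and 6 h after TCP, limma called 0 of the 38 genes, against 6.13% of all genes, with 4 members at an unadjusted p under 0.05, against 21.7%. The difference between treatments in this time course was not tested.

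Of 62 other genes of the pathway, 52 were tested. After PH, 0, 2 and 2 of them rose at the 3 times in order and 1, 1 and 8 fell, and after TCP 0 rose and 0, 0 and 2 fell. The shares of all genes called higher after PH were 0.28%, 3.92% and 8.85% in the same order of times. Those called lower were 0.122%, 3.5% and 11.9%. For TCP the higher shares were 0.122%, 0.507% and 2.63%, and the lower ones 0.0612%, 0.717% and 2.68%. The 8 of 52 genes that fell at PH 6 h were thus near the share of all genes. With the block 5 of the 10 calls at PH 6 h were lost (Acad9, Acsf2, Abcd2, Plin2 and Acot13), as were 1 of 3 at PH 3 h (Acsm5) and 2 of 2 at TCP 6 h (Acsf2 and Ppargc1b). Pdk4, the kinase that keeps pyruvate out of oxidation, was at 11.37, 9.66 and 12.15 at PH 3 h and at 13.10, 10.59 and 9.95 at PH 6 h, against 6.12, 5.85 and 6.41 in controls. It rose by 4.93 and 5.09 (SE 0.81, adjusted p = 0.000972 and 0.00029; block 5.0 and 4.29). Angptl4, a secreted inhibitor of lipoprotein lipase, was at 9.89, 9.46 and 8.55 at PH 1 h, against 11.96, 11.95 and 12.30 in controls. It fell by 2.77 (SE 0.32, limma adjusted p = 0.000658, block -2.53). The fall did not last, with Angptl4 at 12.62, 12.56 and 12.91 at PH 6 h. From PH 1 h to PH 6 h it rose by 3.40 (limma adjusted p = 1.28e-05), a call lost with the block (2.80, adjusted p = 0.0754). Ppargc1b, a coactivator of oxidative genes, fell at PH 6 h (change -2.22, adjusted p = 0.000142) and at TCP 6 h (change -1.67, adjusted p = 0.00579). The TCP call was lost with the block (-1.51, adjusted p = 0.123). Abcd2, a peroxisomal importer of very long acyl-CoA, fell at PH 6 h (change -2.10, adjusted p = 0.00651), a call lost with the block (-1.56, adjusted p = 0.0835). Plin2, a lipid droplet protein, rose by 1.86 at PH 6 h (adjusted p = 0.00514), a call lost with the block (1.54, adjusted p = 0.0718). Ppard was at 9.42, 9.89 and 9.39 at PH 3 h, against 7.78, 7.73 and 8.16 in controls. It rose by 1.68 (limma adjusted p = 0.00102), a call kept with the block (1.51, adjusted p = 0.00865) and in all 6 fits that left out 1 array. At PH 6 h it was at 8.28, 8.82 and 7.88 and was not called.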

How the data were processed

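Total liver RNA of 21 mice was hybridised to Illumina mouse arrays, named MouseRef-8 in the array labels and WG-6 in the study's methods. The deposited tables give, for each of 45281 probes, a signal intensity that the authors exported from BeadStudio without normalisation between arrays, and a deposited detection p-value. The series' table of values deposited by the authors is on the log2 scale after their normalisation, and was used only as an alternative. Here neqc of limma (3.58.1, in R 4.3.3) corrected intensities for background from the detection p-values (offset 16), quantile normalised them and took log2. A probe was kept if it had 1 gene symbol and was detected (p under 0.05) on 3 or more arrays (17970 probes), and the brightest stood for each of 11442 genes. The probe annotation gave 1 symbol for 34885 probes, several for 18 and none for 10378. Of 76 probes of the set 69 were kept, more than 1 for 19 genes. The number of arrays limits the precision. All comparisons and both moderated F tests came from 1 limma model of 7 groups, checked on simulated data, with Benjamini-Hochberg adjustment over all genes. Same-numbered arrays of different groups did not deviate together (correlations of -0.24 to 0.25 over 63 pairs), so the numbers were not used as pairs.

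The 40 genes and all gene lists were chosen with earlier results of these data known. Genes called in a comparison with control or of PH with TCP are named and given by array, others by counts, and defining genes of the pathway are named in any case. Further genes named were chosen after their values were seen. The alternatives were no background correction, 75th percentile scaling, the authors' normalised values, no filter on dim probes, every probe fitted, the beadchip as a block, fits within a beadchip, a replicate block and leaving out each array. A variance trend with a robust prior was added after seeing the data. MicroRNA sequencing was not analysed here.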

Additional observations from a re-analysis of the deposited data

Results flagged for a closer look

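The change between 1 and 6 h after PH met the call threshold for 6 of 38 members (15.8%), against 18.1% of all genes, so the count was near that of all genes. Each gene is listed because the difference between the 2 times was itself tested and called. The values were 1.26 for Pex11a, 1.13 for Acsl4, 0.81 for Acadl, 0.68 for Eci1, 1.55 for Decr2 and 1.07 for Eci2, as log2 differences of PH 6 h minus PH 1 h. With beadchip as a block 0 of the 6 calls remained, and the 2 times lay on different beadchips. Dixon's test for an outlying array was not run, since each group held 3 arrays.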

How the results depend on the processing

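None of the 15 called changes reversed its sign in any alternative. With the beadchip as a block 1 of 15 calls was kept (Acsl4 at PH 6 h), and the members called numbered 0 at PH 3 h, 1 at PH 6 h, 0 at TCP 6 h, 0 for PH 6 h against TCP 6 h, 0 for PH 6 h against PH 1 h and 0 in the F test over PH times. Over all genes the block left 535 called at PH 3 h, 1122 at PH 6 h and 43 at TCP 6 h. It left 26 for PH 6 h against TCP 6 h and 1 for PH 6 h against PH 1 h. Fits within a single beadchip held 1 control array each, so calls are not counted for them. On the authors' values 8 of 15 were kept (lost: Ppara at PH 3 h, Acsl4 and Acot4 at PH 6 h, Acsl4 at TCP 6 h, Crat for PH 6 h against TCP 6 h, and Acsl4 and Acadl for PH 6 h against PH 1 h), with 0 members called at PH 3 h and 1 at TCP 6 h. TCP 6 h also had 1 without background correction, 1 without the filter on dim probes and 1 with every probe fitted. Over all genes TCP 6 h had 295 on the authors' values, 484 without background correction and 478 without the filter. PH 3 h had 324 on the authors' values. With every probe fitted PH 6 h had 5 members, namely Acsl4 and Bdh1, and through probes other than the brightest Pex11a, Acot2 and Etfdh. There TCP 6 h against TCP 1 h had 1 (Hadh, through a dimmer probe). Scaling to the 75th percentile gave 2 for TCP 6 h against TCP 1 h, where it called 838 of all genes, and 1 in the F test over TCP times. It kept 14 of 15, all but Acaa1b for PH 6 h against TCP 6 h. The cause was not tested.

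The replicate number as a block kept 15 of 15 calls, with 4 members called at PH 6 h and 7 in the F test over PH times, and ended no call. The variance trend with a robust prior, added after seeing the data, kept 13 of 15. Leaving out 1 array gave 0 to 1 called members at PH 1 h, 0 to 1 at PH 3 h, 2 to 7 at PH 6 h, 0 to 1 at TCP 6 h, 0 to 1 for PH 3 h against TCP 3 h, 0 to 3 for PH 6 h against TCP 6 h, 3 to 8 for PH 6 h against PH 1 h, 0 to 1 for TCP 6 h against TCP 1 h and 3 to 8 in the F test over PH times. It gave 0 throughout at TCP 1 h, at TCP 3 h, for PH 1 h against TCP 1 h and in the F test over TCP times. Over all genes these fits called 7 to 109 at PH 1 h, 325 to 1279 at PH 3 h and 1690 to 2748 at PH 6 h. They called 0 to 20 at TCP 1 h, 8 to 93 at TCP 3 h and 161 to 486 at TCP 6 h. Between PH and TCP they called 4 to 77, 203 to 842 and 774 to 1427 at 1, 3 and 6 h. From 1 to 6 h they called 1237 to 2373 after PH and 265 to 557 after TCP. Over the other settings the count of all genes called ran from 922 to 2535 at PH 6 h (2379 in the model reported) and from 324 to 901 at PH 3 h (850). It ran from 43 to 742 at TCP 6 h (608) and from 5 to 64 at PH 1 h (46). These ranges leave out the fits within a beadchip and the fit of every probe. Signals near background limit Cpt1a, Acot2 and Fabp1. Among others, Ppara at PH 3 h (lowest 5.12) and Hadha at PH 1 h (lowest 5.17) also had low signals, though detected on all 3 arrays.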
